A study of Mus musculus with 8 samples.

Results

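Ada, Slc28a2, Nt5e, Clca4a, 2010109I03Rik, Pmp22, Slc34a2, 2010107G12Rik and Ahnak were followed through single-cell RNA sequencing of mouse small intestinal crypts. All 9 were found by their symbols among the 27998 genes of the deposited matrices. They were chosen by values measured in these same matrices, as leading genes of a group of shallow, mostly KO enterocyte barcodes or as genes with a large KO rise in mature enterocytes, so that their levels in KO against WT are a description and support nothing by themselves. The sorted cells carried EpCAM, an epithelial surface protein, and came from crypts of adult mice. WT mice were the controls and, per the study's methods, carried a reporter of the intestinal enhancer ieCtnnb1 at the H11 locus (H11 i.enh). KO mice were homozygous for a CRISPR/Cas9 deletion of ieCtnnb1, which lies upstream of Ctnnb1 (Ctnnb1 Δi.enh). Although 4 samples are labelled per group, a single pooled matrix was deposited for each, with barcodes that name no sample, and the crypts had been filtered to take out villi. There was thus 1 matrix per genotype and no test between genotypes, and every interval below covers counting error only.

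Enterocytes are born in the crypt and change their gene programme as they move up the villus until they are shed at its tip. Cells of the lower villus are known for antimicrobial genes such as those of the Reg3 family, and cells near the tip for lipoprotein genes, cell adhesion genes and the handling of purines. In that last pathway Nt5e (CD73) makes adenosine from AMP at the cell surface, Slc28a2 takes up purine nucleosides together with sodium, and Ada converts adenosine to inosine. RefSeq names 2010107G12Rik as Slc23a4, a sodium-dependent nucleobase transporter of rodents. Slc34a2 carries phosphate across the brush border, Clca4a belongs to the CLCA family, and 2010109I03Rik is named Ly6m in RefSeq, a member of the Ly6 family of surface proteins. Pmp22 is a small membrane protein best known from myelin, and Ahnak is a very large scaffold protein.

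The genes lie apart in the genome. In the GRCm38 annotation, the mouse assembly also called mm10, Ada lies on the minus strand of chromosome 2 (163726584 to 163750239) and Slc28a2 on the plus strand of the same chromosome (122426477 to 122461137). Nt5e lies on chromosome 9 (88327197 to 88372092), Clca4a on chromosome 3 (144952480 to 144975045), 2010109I03Rik on chromosome 15 (74876987 to 74897021) and Pmp22 on chromosome 11 (63128982 to 63159547). Slc34a2 lies on chromosome 5 (53038081 to 53071664), 2010107G12Rik on chromosome 6 (34945278 to 34988404) and Ahnak on chromosome 19 (8989284 to 9076914). RefSeq promoters (GRCm38.p6) were at hand for 7 of the 9 genes, with 10 start sites in all, and were read over the 250 bases before each start site. They were searched on both strands for TATAAA, the HNF4 word CAAAGTCCA, the CDX word TTTATNG, the GATA word AGATAA and the KLF word GGGNGTGG, motifs of factors that are known in enterocytes. Matches were found at 1 of the 10 start sites, that of Slc28a2, which held the CDX word on the minus strand and the GATA word on the plus strand. The promoters of Slc28a2 and of Ada, the transporter and the enzyme that act on the same nucleoside, are shown for that contrast, 5′ to 3′ along the gene's strand, with the matches in capitals.
Slc28a2 (chr2:122426185-122426434, plus strand): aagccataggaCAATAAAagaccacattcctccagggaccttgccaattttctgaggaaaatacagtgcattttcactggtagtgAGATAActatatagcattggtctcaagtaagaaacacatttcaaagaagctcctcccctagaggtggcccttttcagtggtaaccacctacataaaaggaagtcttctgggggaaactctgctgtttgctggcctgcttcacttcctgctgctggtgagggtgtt
Ada (chr2:163750240-163750489, minus strand): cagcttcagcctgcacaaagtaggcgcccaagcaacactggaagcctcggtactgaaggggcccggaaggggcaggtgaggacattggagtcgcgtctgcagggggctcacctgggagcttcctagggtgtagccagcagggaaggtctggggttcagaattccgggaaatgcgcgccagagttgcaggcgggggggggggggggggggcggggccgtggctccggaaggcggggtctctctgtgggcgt
The CDX match began 239 bases and the GATA match 165 bases before the start site of Slc28a2. Among all 32851 promoter windows of the same length, 9.81% held the CDX word, 9.99% the GATA word, 12.4% TATAAA, 0.384% the HNF4 word and 15.9% the KLF word, and they are given as letters in a window and not as binding sites.

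Barcodes with at least 200 genes and at most 30% mitochondrial UMIs (unique molecular identifiers, each standing for 1 captured transcript) were kept, 13095 of 15987 in WT and 8658 of 12763 in KO. Their median depth was 6675 UMIs in WT and 8692 in KO, and 1468 WT and 2257 KO barcodes had under 1000. Epcam was found in 86.3% of kept WT and 83.5% of kept KO barcodes, whereas the leukocyte gene Ptprc was found in 0.374% and 0.139%, and Ctnnb1 stood at 119 UMIs per 1000000 (CPM) in WT and 91.8 CPM in KO. Of the barcode sequences, 57 occurred in both matrices.

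In all kept barcodes together, 8 of the 9 genes had a higher level in KO than in WT, and 7 were at least 2-fold higher. Among the purine genes, Ada had 444 UMIs in WT and 3384 in KO, or 3.38 CPM (95% Poisson interval 3.08 to 3.71) against 28.9 CPM (27.9 to 29.8). Slc28a2 had 186 and 934 UMIs, or 1.42 against 7.96 CPM. Nt5e was the scarcest of the 9, with 60 UMIs in WT and 172 in KO, or 0.457 against 1.47 CPM. The nucleobase transporter 2010107G12Rik, in contrast, had 668 and 719 UMIs, at 5.09 and 6.13 CPM. For these 4 genes KO was thus 8.53-fold, 5.62-fold, 3.21-fold and 1.20-fold above WT, in that order.

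The late enterocyte genes outside purine handling spread more widely. 2010109I03Rik had 110 UMIs in WT and 2756 in KO, a 28.0-fold higher level in KO (log2 ratio 4.81, exact conditional 95% interval 4.53 to 5.10). Pmp22 rested on 139 and 2457 UMIs and was 19.8-fold higher (4.31, 4.06 to 4.56), and Clca4a on 162 and 2499 UMIs and was 17.3-fold higher (4.11, 3.88 to 4.35). Slc34a2, which had more UMIs in WT than these, went from 735 to 2545 UMIs, a 3.87-fold difference. Ahnak was the exception, with 3539 UMIs in WT and 2293 in KO, 27.0 against 19.5 CPM (log2 ratio -0.46, -0.54 to -0.39). The log2 ratio of 2010107G12Rik was 0.27 (0.11 to 0.42).

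Over the 12767 genes with at least 50 UMIs in both matrices together, 3.94% were at least 2-fold higher and 7.37% at least 2-fold lower in KO, beside 7 and 0 of the 9 genes, which passed that minimum throughout. The median log2 ratio was 2.49 over the 9 and -0.05 over all genes. The scale matters here, since Paneth cell transcripts take a large share of all UMIs. With the genes above 1% of the UMIs of either matrix taken out of the total, the median of all genes stood at -0.39, 142 genes were called higher and 2193 lower in place of 503 and 941, and 7 of the 9 genes were at least 2-fold higher, while 2010107G12Rik turned to a log2 ratio of -0.072.

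**Figure D1:**
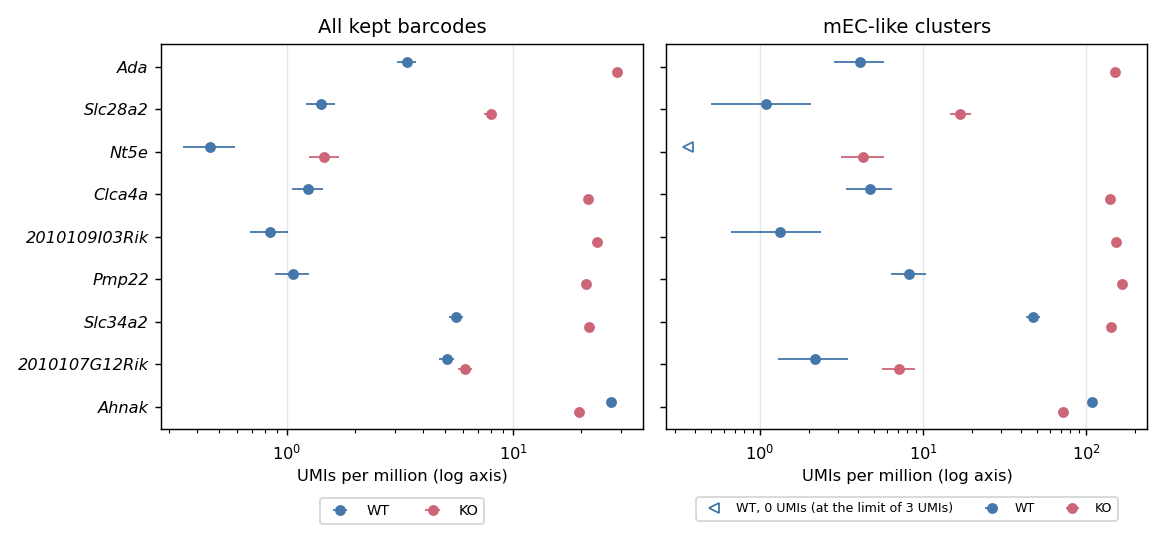
Level of each of the 9 genes in CPM (log axis) in the WT matrix (blue) and the KO matrix (red), over all kept barcodes (left) and over the mEC-like clusters (right); bars are 95% Poisson intervals for counting error and the open triangle marks 0 UMIs, drawn at the limit of 3 UMIs. Pairs stand far apart for 2010109I03Rik, Pmp22, Clca4a and Ada and close together for 2010107G12Rik in all kept barcodes, and Ahnak is lower in KO in both panels.

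Kept barcodes of both matrices were integrated and clustered with these 9 genes and lists of purine and upper villus genes left out of the genes used, which gave 22 clusters. Clusters 1, 16 and 17 were called mEC-like (mature enterocyte-like) from a fixed marker list, with 1556 WT and 1100 KO barcodes. They were filled differently by genotype. Cluster 1 held 940 WT and 663 KO barcodes, cluster 17 held 430 and 96, and cluster 16, whose leading gene was the ileal bile acid binding protein gene Fabp6, held 186 and 341. Cluster 5 held 57 WT and 1403 KO barcodes with a median of 785 UMIs in KO, and it stayed unnamed since it was shallow and had no mEC marker among its top 10 genes, which included Clca4a, Slc34a2, 2010109I03Rik and Ahnak.

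In mEC-like barcodes the log2 ratio of KO to WT was above that over all kept barcodes for Ada (5.19), 2010109I03Rik (6.85), Slc28a2 (3.96), Clca4a (4.89) and 2010107G12Rik (1.71), close to it for Pmp22 (4.34) and below it for Slc34a2 (1.59). Ada had 34 UMIs in WT and 1577 in KO, or 4.11 against 150 CPM. 2010109I03Rik had 11 and 1607 UMIs, or 1.33 against 153 CPM, and Pmp22 68 and 1747, or 8.22 against 166 CPM. Each of these rested on few WT molecules, so that the folds are wide. Clca4a went from 39 to 1464 UMIs (4.71 against 139 CPM) and Slc28a2 from 9 to 178 (1.09 against 16.9 CPM). Nt5e had 0 UMIs in WT and 45 in KO, at least 11.8-fold higher when WT is set at the limit of 3 UMIs. Slc34a2, with 390 and 1492 UMIs, stood at 47.1 and 142 CPM, and 2010107G12Rik, with 18 and 75, at 2.18 and 7.14 CPM. Ahnak was again lower in KO, at 109 CPM in WT and 72.0 CPM in KO (log2 ratio -0.60). Of the 8 genes with at least 50 UMIs there, 7 were at least 2-fold higher and 0 at least 2-fold lower in KO, beside 1.95% and 20.7% of the 9211 genes that passed the same minimum. The median log2 ratio of the 9 was 3.96 with Nt5e at its bound, and 2.26 without cluster 16, a choice made after the values were seen. Over the 9211 genes in all mEC-like barcodes the median was -0.42, so a lower level in KO, as for Ahnak, was common there.

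Within the mEC-like clusters most of the genes were concentrated in cluster 16. In KO, Ada stood at 9.28 CPM in cluster 1 and at 523 CPM in cluster 16, Clca4a at 7.08 and 485 CPM, and 2010109I03Rik at 3.30 and 546 CPM. For these genes WT had the same order at lower levels, with Ada at 0.741 and 24.5 CPM, Clca4a at 0.370 and 37.8 CPM and 2010109I03Rik at 0.185 and 10.2 CPM. Slc34a2 was less unequal, at 75.5 and 328 CPM in KO and 23.0 and 238 CPM in WT. Ahnak was less unequal still, at 51.8 and 134 CPM in KO and 101 and 237 CPM in WT. In WT 2010107G12Rik was instead higher in cluster 17 (6.86 CPM, 13 UMIs) than in cluster 16 (2.04 CPM, 2 UMIs). Nt5e had 0 UMIs in the WT mEC-like clusters. Inside cluster 16 alone, KO was above WT by 21.3-fold for Ada, 53.4-fold for 2010109I03Rik, 12.8-fold for Clca4a, 10.7-fold for Slc28a2 and 8.89-fold for Pmp22, but by 1.38-fold for Slc34a2 (log2 ratio 0.46, 0.25 to 0.67), and Ahnak was lower in KO (-0.83, -1.07 to -0.59). The WT side of these folds rested on 24 UMIs of Ada, 10 of 2010109I03Rik, 37 of Clca4a, 5 of Slc28a2 and 62 of Pmp22.

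Clusters 5 and 16 together held 66.3% of the Ada UMIs of kept KO barcodes, 84.8% of those of 2010109I03Rik, 79.2% of Clca4a, 76.7% of Pmp22 and 61.5% of Slc28a2. They held 68.0% of Nt5e and 56.9% of Slc34a2, but 32.7% of Ahnak and 22.7% of 2010107G12Rik. The genes did not share them out alike. In KO, Ada was at 563 CPM in shallow cluster 5 and 523 CPM in cluster 16, and Clca4a at 445 and 485 CPM. Slc28a2, in contrast, stood at 317 CPM in cluster 5 and 54.9 CPM in cluster 16 (log2 difference 2.53, 2.26 to 2.81), Nt5e at 58.0 and 14.2 CPM (2.03, 1.46 to 2.61) and 2010107G12Rik at 80.1 and 20.1 CPM (1.99, 1.52 to 2.48). Pmp22 had the opposite order, at 201 CPM in cluster 5 and 563 CPM in cluster 16 (-1.49, -1.68 to -1.30). Ahnak, which is no purine gene, was also higher in cluster 5, at 278 against 134 CPM (1.05, 0.84 to 1.27), so that the higher level in the shallow barcodes was not limited to purine genes. Inside cluster 5, KO was above WT by 13.6-fold for Ada, 11.5-fold for Slc28a2, 7.03-fold for 2010109I03Rik, 2.91-fold for Pmp22 and 1.79-fold for Clca4a. These rested on 3, 2, 6, 5 and 18 WT UMIs. Slc34a2 was 1.27-fold higher there (log2 ratio 0.34, -0.27 to 1.03) and Ahnak lower (-0.88, -1.37 to -0.35). Without clusters 5 and 16, also a choice made after the values were seen, the log2 ratio of KO to WT over the other barcodes was 3.19 for Pmp22, 2.48 for Clca4a, 2.36 for 2010109I03Rik, 1.66 for Ada, 1.21 for Slc28a2 and 0.08 for Nt5e.

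**Figure D2:**
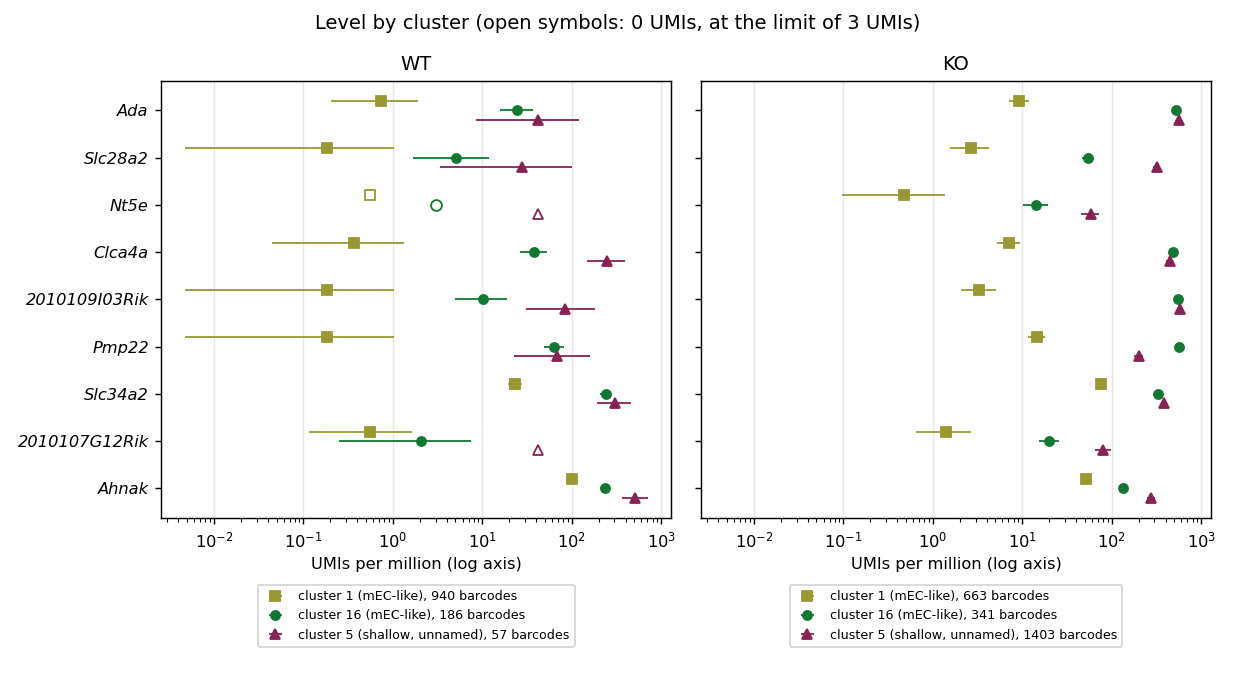
Level of each gene in CPM (log axis) in clusters 1, 16 and 5 of the WT matrix (left) and the KO matrix (right), with 95% Poisson intervals; open symbols mark 0 UMIs, drawn at the limit of 3 UMIs. In KO, Slc28a2, Nt5e, 2010107G12Rik and Ahnak are higher in the shallow cluster 5 than in cluster 16, Pmp22 is lower there, and all 9 genes are lowest in cluster 1.

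Most pairs of the 9 genes were found together more often than their shares in all kept barcodes, without correction for depth. The genes were chosen partly as leading genes of 1 group of barcodes, so that such meeting is in part built in. In WT, 9371 kept barcodes had no UMI of any of them, 3128 had UMIs of 1 gene, 514 of 2 and 82 (0.626%, exact Clopper-Pearson interval 0.498 to 0.777) of 3 or more. In KO the counts were 4494, 2404, 997 and 763 (8.81%, 8.22 to 9.43). For 5 or more genes the counts were 12 in WT and 223 in KO, and 4 KO barcodes but no WT barcode held all 9. Depth did not run in parallel with the number of genes found. In KO, barcodes with UMIs of 2 genes had a median of 13820 UMIs, those with 3 had 9457, those with 4 had 3311, those with 5 had 1407 and those with 9 had 6465. The same fall was seen in WT, from 8985 UMIs at 2 genes to 2152 at 4 and 1127 at 5. Barcodes with UMIs of 5 genes also held few genes of any kind, a median of 618 in KO and 378 in WT.

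**Figure D3:**
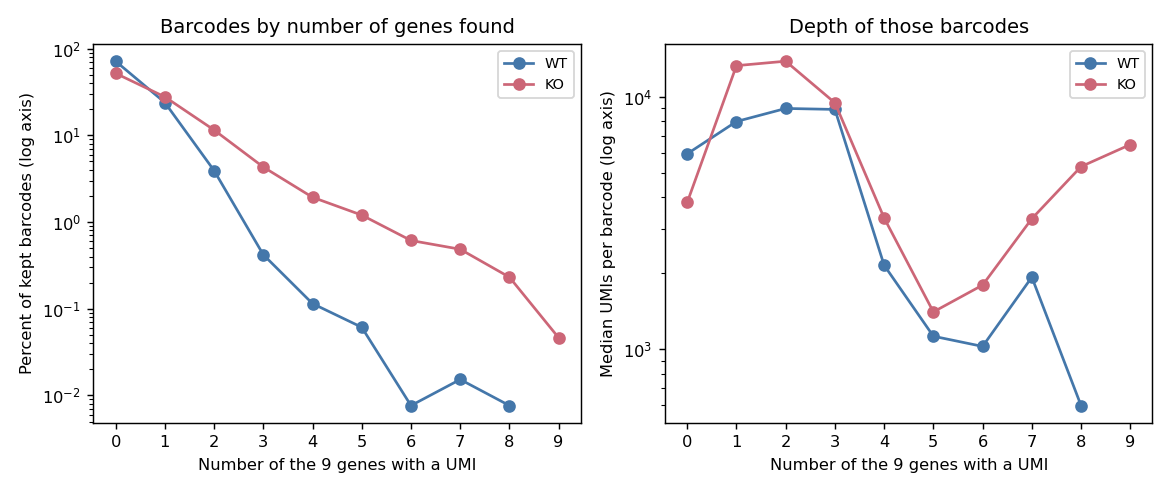
Left, percent of kept barcodes (log axis) by how many of the 9 genes had a UMI; right, median UMIs of those barcodes (log axis), in WT (blue) and KO (red), with no point where a matrix had no such barcode. The share falls more slowly in KO than in WT, and the depth falls between 3 and 5 genes in both matrices before it rises again in KO towards the 4 barcodes with all 9.

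The single barcodes show what the sums are made of. The 4 KO barcodes with all 9 genes held between 4657 and 7159 UMIs and lay in cluster 16. The one with most UMIs of these genes had 6493 UMIs in all, of which 109 were Ada, 85 were 2010109I03Rik, 55 were Clca4a and 19 were Pmp22, or 4.37% of its UMIs for the 9 genes. Another KO barcode, with 7782 UMIs and 8 of the genes, had 221 UMIs of 2010109I03Rik, 126 of Ada, 16 of Slc28a2 and 11 of Nt5e. Among WT barcodes with 5 or more of the genes, the one with most UMIs of them lay in cluster 16 and had 2290 UMIs, 15 of Ada, 14 of Clca4a and 8 of 2010109I03Rik, which is 2.14% of its UMIs. The WT barcode with most genes found, 8, had 599 UMIs and at most 3 of any of them. WT barcodes with a profile of this kind were thus present but few: 8 of the 12 with 5 or more genes lay in the shallow cluster 9, which held 1131 WT and 28 KO barcodes.

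Pairs of genes differed in how often they met. Among the 112 KO barcodes with Nt5e, 63.4% also had 2010109I03Rik, against 7.30% of all kept KO barcodes, and 59.8% had Clca4a, against 8.84%. Of the 500 KO barcodes with Slc28a2, 43.0% had 2010109I03Rik. Pmp22 met Slc34a2 in 48.5% of its 736 barcodes, against 14.8% of all. Ahnak was looser, with 28.3% of its KO barcodes holding 3 or more of the genes, whereas for Nt5e this was 74.1% and for Slc28a2 58.0%. Not every pair met more often. In WT, 2.33% of Pmp22 barcodes had 2010107G12Rik, against 4.70% of all kept WT barcodes, and 0 barcodes had both Nt5e and Slc34a2. In KO, 7.17% of Slc34a2 barcodes had 2010107G12Rik, against 7.15% of all. These shares were not corrected for depth and carry no test.

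Every barcode was then thinned to 1000 UMIs, with the 1468 WT and 2257 KO barcodes below that left out. After it, 19 of 11627 WT barcodes (0.163%, 0.0984 to 0.255) and 175 of 6401 KO barcodes (2.73%, 2.35 to 3.16) had UMIs of 3 or more genes, against 0.626% and 8.81% without thinning. Thinned to 500 UMIs, which left out 0 barcodes, the shares were 0.122% and 2.64%. Among KO barcodes under 1000 UMIs 8.33% had 3 or more of the genes, and among those of 5000 to 10000 UMIs 13.6%, beside 1.09% and 0.427% in WT. Level differed between depth bins: in KO Slc28a2 stood at 159 CPM in barcodes under 1000 UMIs, 17.0 CPM at 5000 to 10000 and 2.06 CPM above 20000, whereas Pmp22 stood at 70.7, 158 and 4.35 CPM. Depth and cell class were not separated here, since in KO the median was 8277 UMIs in cluster 16 and 44733 in Paneth-like barcodes.

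Reads of these genes were also seen in cell classes that are not enterocytes. In KO, Paneth-like (PC-like) barcodes, with a median of 44733 UMIs, had Ada at 7.51 CPM, Pmp22 at 4.19 CPM and 2010109I03Rik at 2.76 CPM. KO TC-like (tuft-like) barcodes had 12.2, 4.70 and 2.82 CPM, from 13, 5 and 3 UMIs. In PC-like barcodes the WT values were lower, at 1.44, 0.359 and 0.0133 CPM, the last from 1 UMI. In TC-like barcodes the intervals of the log2 ratio of KO to WT spanned 0 for Ada (-0.68 to 2.32) and Pmp22 (-0.98 to 7.74). Thinned to 1000 UMIs, 4.80% of KO mEC-like barcodes had a UMI of Ada and 12.1% one of Pmp22, against 0.619% and 0.531% of KO PC-like barcodes. The part of free RNA in the values of these classes was not tested. 8.38% of KO PC-like barcodes had UMIs of 3 or more of the 9 genes without thinning, so at that depth the count of genes alone does not mark an enterocyte.

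For some genes, other classes held a large share of the WT molecules. In WT, 76.7% of the Nt5e UMIs lay in EEC-like (enteroendocrine-like) barcodes, at 28.1 CPM there (46 UMIs) against 2.70 CPM in KO (5 UMIs), and 27 of the 180 WT barcodes of EEC-like cluster 20 had one. The class was made up differently by genotype, since cluster 20 held 180 of 300 EEC-like barcodes in WT and 32 of 121 in KO. Within it Nt5e stood at 57.6 CPM in WT and 7.71 CPM in KO, the latter from 2 UMIs. In KO the UMIs of Nt5e lay mainly elsewhere, with 68.0% in clusters 5 and 16. 2010109I03Rik had 47.3% of its WT UMIs, 52 UMIs, in goblet-like (GC-like) barcodes, at 3.06 CPM in WT and 4.48 CPM in KO. These WT UMIs lay in 0.695% of the GC-like barcodes, and 14 of them in 1 barcode. 2010107G12Rik was highest among the named WT classes in TAC-like (transit-amplifying-like) barcodes, at 17.9 CPM, and lower there in KO, at 9.33 CPM (log2 ratio -0.94, -1.23 to -0.65). Ahnak was lower in KO in GC-like (63.6 against 21.3 CPM), TAC-like (35.5 against 11.8 CPM) and imEC-like (immature enterocyte-like) barcodes (85.2 against 29.6 CPM). In the unnamed clusters together, which held most barcodes of any class in both matrices, it was higher in KO, at 29.0 CPM in WT and 43.8 CPM in KO (log2 ratio 0.59, 0.39 to 0.80). That class was filled differently by genotype. Of its 489 KO UMIs of Ahnak, 364 lay in cluster 5, which held 57 WT and 1403 KO barcodes. Inside cluster 5 Ahnak was lower in KO, at 511 CPM in WT and 278 CPM in KO.

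The company of the 9 genes was read inside cluster 16 of the KO matrix, where 66 barcodes had UMIs of 3 or more of them after thinning and 150 had none. This comparison was added after the values were seen. The wider set of 763 KO barcodes with 3 or more genes before thinning, against 332 mEC-like ones with none, gave another picture. There 2 of 18 upper villus genes were at least 2-fold higher and 4 lower, and 0 of 18 absorption genes higher and 12 lower. Of 11 lower villus genes 8 were lower and 0 higher, and 11 of 11 Paneth markers were higher. Of all 8182 genes compared there, 204 were higher and 640 lower. The 66 barcodes had a median of 6350 UMIs and the 150 had 9225, with 8.99% and 8.37% of UMIs mitochondrial. Of the upper villus list, 10 of 15 genes with at least 50 UMIs were at least 2-fold higher in the 66 barcodes. On the same log2(CPM + 10) scale 1 was lower. Apoa4, a lipoprotein gene, stood at 9024 CPM against 339 CPM, Creb3l3, a transcription factor gene of lipid metabolism, at 721 against 54.0 CPM, and the keratin gene Krt20 at 4983 against 1276 CPM. The stress and growth-arrest genes Atf3 (95.3 against 8.42 CPM), Klf4 (489 against 98.9 CPM) and Ifrd1 (310 against 13.3 CPM) went the same way, and Plac8 the other way (904 against 1878 CPM). Among all 3187 genes that could be compared 7.97% were at least 2-fold higher and 17.0% at least 2-fold lower.

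Of the lower villus list, 8 of 9 genes were at least 2-fold lower in the same barcodes and 0 were higher. The antimicrobial lectin genes Reg3b and Reg3g stood at 12370 against 60180 CPM and 6588 against 23126 CPM, Lypd8 at 899 against 6291 CPM, Ccl25, a chemokine gene, at 235 against 1144 CPM and Il18 at 29.3 against 180 CPM. Reg1 was the member that was not lower, at 34.2 against 25.9 CPM. Absorption genes were higher in 10 of 15 cases and lower in 0, with Apoc3 at 5427 against 535 CPM, Rbp2, which binds retinol, at 5349 against 918 CPM and Fabp2 at 74475 against 16205 CPM. In the brush border list 5 of 18 genes were higher and 1 was lower, Sis, the sucrase-isomaltase gene, at 261 against 1119 CPM. The ileal genes did not follow, since 0 of 9 were higher and 2 were lower, among them Fabp6 at 21695 against 70851 CPM. Of 7 proximal genes 3 were higher, Cyp3a11 (227 against 28.8 CPM), Rbp2 and Adh6a, and 2 were lower, Gsta1 (14.7 against 264 CPM) and S100g (34.2 against 189 CPM), with a median log2 difference of 0.89. In the purine list 2 of 14 were higher, Enpp3, a surface nucleotide phosphodiesterase gene, at 195 against 6.31 CPM and Entpd8, a nucleoside diphosphohydrolase gene, at 127 against 41.4 CPM, and Adk, the adenosine kinase gene, was lower at 22.0 against 65.9 CPM. Among markers of other cell types, summed Paneth markers were at 36288 against 26563 CPM and summed enteroendocrine markers at 48.9 against 125 CPM, where Chga, the chromogranin A gene, was the 1 tested and was lower (2 and 90 UMIs). Summed myeloid markers were not near 0, at 7094 against 6015 CPM, and of the 3 tested 0 were at least 2-fold higher or lower. Summed lymphocyte markers were at 17.1 against 6.31 CPM. In the barcodes with 3 or more of the genes, 5 of 9 myeloid and 9 of 12 lymphocyte markers were at 0 UMIs. In those barcodes 9 of 9 stromal and 5 of 5 endothelial markers were also at 0 UMIs. The part of these in the values was not tested. In WT only 4 barcodes of cluster 16 met the same condition, with 11116 UMIs between them, too few for a comparison.

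**Figure D4:**
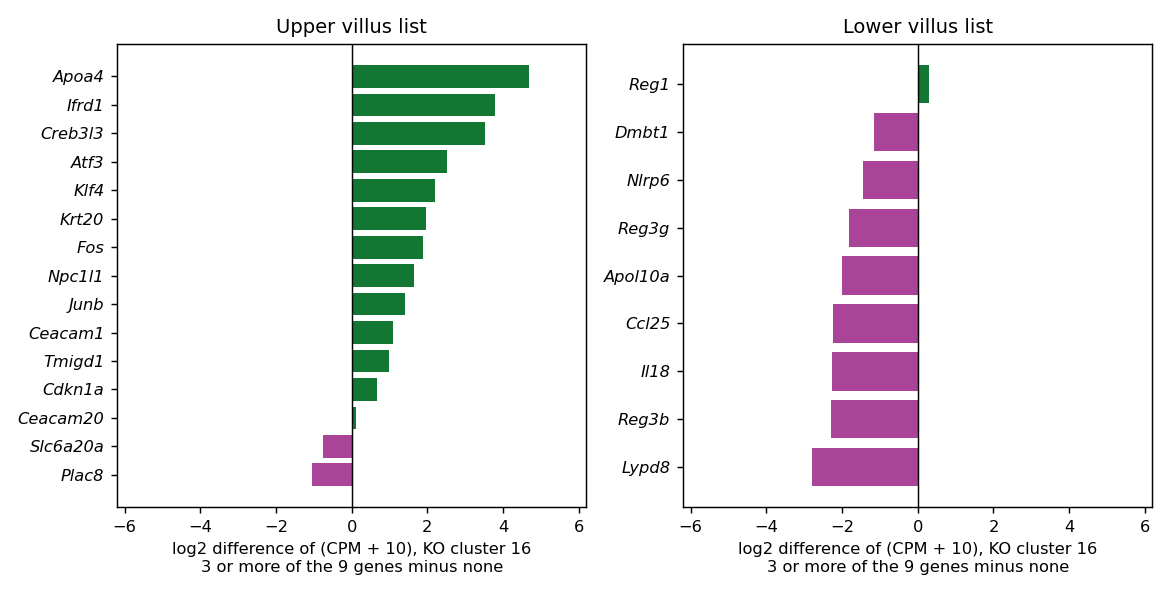
Difference of log2(CPM + 10) between KO barcodes of cluster 16 with 3 or more of the 9 genes after thinning to 1000 UMIs (66 barcodes) and those with none after that thinning (150 barcodes), for genes of the upper villus list (left) and the lower villus list (right) with at least 50 UMIs. Of 15 upper villus genes 10 lie at 1 or above, led by Apoa4, and of 9 lower villus genes 8 lie at -1 or below.

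In shallow barcodes the upper and lower villus lists had the same directions as in cluster 16, and other lists did not. Among KO barcodes of 500 to 5000 UMIs, the 134 with 5 or more of the genes had a median of 1130 UMIs and the 77 mEC-like ones with none 3013, of which 43 lay in cluster 1 and 31 in cluster 17. 10 of 12 upper villus genes were at least 2-fold higher and 1 lower, with Krt20 at 2496 against 479 CPM, Tmigd1, an epithelial adhesion gene, at 704 against 62.2 CPM and Klf4 at 425 against 43.1 CPM. 6 of 6 lower villus genes were lower, with Reg3b at 3116 against 14021 CPM. Absorption genes were higher in 4 and lower in 4 of 15 cases, brush border genes higher in 4 and lower in 5 of 16, and ileal genes higher in 3 and lower in 0 of 7. All 890 genes compared gave 15.6% higher and 24.6% lower. Some difference ran with depth and origin: the proximal genes were lower in 5 of 6 cases, summed Paneth markers were at 122340 against 69715 CPM, 5 of 8 goblet markers were higher, and mitochondrial transcripts took 12.6% of UMIs against 20.7%, and the part of these in the values was not tested.

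Within barcodes of 5 or more of the genes, the KO matrix held 102 under 2000 UMIs and 89 above 5000. Slc28a2 stood at 2010 CPM in the former and 109 CPM in the latter, Nt5e at 371 and 31.7 CPM, Ada at 3042 and 910 CPM and Pmp22 at 471 and 506 CPM. A shallow barcode needs a higher level to show 5 genes, so these levels describe the barcodes that were picked.

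In the rest of the purine list the genotypes were closer. Over all kept barcodes, 4 of 43 other purine genes were at least 2-fold higher in KO and 2 were at least 2-fold lower, with a median log2 ratio of 0.18. Beside this and the other list counts over all kept barcodes stand the shares of all genes, 3.94% higher and 7.37% lower. Those higher were Aprt, which salvages adenine (127 against 256 CPM in WT and KO), Pnp2, a purine nucleoside phosphorylase gene (28.1 against 60.7 CPM), the equilibrative nucleoside transporter gene Slc29a2 (0.632 against 1.42 CPM) and the adenosine receptor gene Adora2b (0.396 against 0.878 CPM). Those lower were Ampd3, the AMP deaminase gene (8.22 against 4.10 CPM), and Entpd3 (0.290 against 0.119 CPM). The log2 ratios were 1.01 for Aprt, 1.11 for Pnp2, 1.16 for Slc29a2 and 1.15 for Adora2b, close to the 2-fold limit. Taking the most abundant genes out of the total shifts every log2 ratio by -0.34, which leaves these 4 genes under 2-fold. Ampd3 lay just past the limit on the lower side. Xdh, which makes uric acid, was at 30.3 and 20.7 CPM, and Adk at 27.1 and 34.6 CPM. In mEC-like barcodes 1 of 34 purine genes was higher and 4 were lower, with a median log2 ratio of -0.19. Of all genes tested there, 1.95% were higher and 20.7% lower, with a median of -0.42. The upper villus list had 2 higher and 3 lower of 18 over all kept barcodes. Tmigd1 (5.13 against 65.8 CPM) and Gprc5a (0.328 against 1.23 CPM) were higher, and Fos, Dusp1 and Atf3 lower. The ileal list moved with the 9 genes: 9 of its 10 genes were at least 2-fold higher in KO, with Fabp6 at 564 and 2795 CPM and the ileal bile acid transporter gene Slc10a2 at 2.21 and 18.4 CPM, and 0 of 10 tested duodenal genes were higher and 2 lower. How much of the difference in the 9 genes goes with the part of the intestine sampled cannot be told apart from genotype with 1 matrix each.

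Across the 22 clusters, the genes whose level ran most like the sum of the 9 were Eps8l2, Plec, Mxd1, Mtmr11, Phactr2, Trim15, Edn3, Neu1, Nos1ap and Xpnpep2. Pearson's r with the summed level was 0.90 in WT and 0.91 in KO for Eps8l2, an actin regulator gene, and 0.89 and 0.91 for Plec, which encodes the linker protein plectin, down to 0.90 and 0.86 for Xpnpep2, an aminopeptidase gene. These r values are over clusters, which share a library and depth, and Ahnak alone takes much of the WT sum, with an r of 0.97 to it, whereas 2010107G12Rik and Nt5e had 0.11 and 0.09 in WT. The log2 ratios of KO to WT of these 10 genes lay between -0.53 and 0.99, a range that also holds those of Ahnak and 2010107G12Rik and none of the other 7 genes. WT and KO levels were 32.9 and 36.1 CPM for Eps8l2 and 50.9 and 35.1 CPM for Plec, and 5.64 and 11.2 CPM for Xpnpep2.

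In KO, mEC-like barcodes with 3 or more of the genes after thinning (70) were also set against those with none after thinning (760). Of the 70, 66 lay in cluster 16, and of the 760 most, 549, lay in cluster 1. Without thinning, 332 KO mEC-like barcodes had none of the genes. The 10 genes ranked highest by the mean difference of log2(CPM + 10) over both matrices were Tmigd1, Duoxa2, S100a6, Acta1, Slc10a2, Marcksl1, Saa1, Slc25a22, S100a11 and Pmepa1, but the WT side of that mean rests on 4 barcodes, too few for a comparison, and the order is not to be read. In KO alone, S100a6, a calcium-binding protein gene, had the widest difference of these 10, at 1906 against 50.5 CPM (4.98), followed by Acta1, an actin gene, at 351 against 7.74 CPM (4.35). S100a11 stood at 1073 against 79.0 CPM (3.61), Duoxa2, the maturation factor of the oxidase Duox2, at 410 against 33.1 CPM (3.29) and Tmigd1 at 2197 against 264 CPM (3.01).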

How the data were processed

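The authors deposited raw UMI counts per gene and barcode, made with Cell Ranger 4.0.0 per the file headers (2.1.1 in the labels) on mm10 per the labels from 10x Genomics 3-prime libraries. Each group came as 1 matrix, with 134876816 UMIs in WT and 123794575 in KO. Annotated start and end positions were those of GENCODE vM21 on GRCm38. The 9 genes and all lists were chosen with earlier results of these data known. Barcodes under 200 genes or over 30% mitochondrial UMIs were left out. Scrublet called 0 doublets in either matrix, and why was not tested. The study itself reported doublets in both genotypes with DoubletFinder. Doublets therefore probably stayed in, and an alternative removed the 10% with the highest Scrublet score.

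Kept barcodes were integrated with Seurat 5.3.0 (canonical correlation, 2000 variable genes without the 9 genes, the purine and upper villus lists and mitochondrial genes, 30 dimensions) and clustered with leidenalg 0.10.2 (15 neighbours, resolution 1). A cluster was named from at least 3 fixed markers among its 50 leading genes, unless another class had as many among the top 10 or it was shallow with none there. Levels are summed UMIs per 1000000 UMIs (CPM). Intervals are exact Poisson for levels, exact conditional binomial for ratios and Clopper-Pearson for shares, at 95%. A gene with 0 UMIs was set at 3 UMIs for a bound. Contrasts between barcodes added 10 to the CPM. Where genes are set side by side, such as the scarcest of the 9, the comparison is of UMI counts and was not tested. Genes named were the 9, genes of the fixed lists, the 10 most correlated over clusters of at least 20 barcodes and the 10 with the largest fold in at least 10% of barcodes with 3 or more of the genes. The comparison inside cluster 16 and the settings without clusters 5 or 16 were chosen after seeing the data. Scripts were tested on simulated data.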

Additional observations from a re-analysis of the deposited data

Results flagged for a closer look

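The barcodes over the mitochondrial limit were used in no comparison above. Among the 4084 such barcodes of KO, 136 (3.33%, exact Clopper-Pearson interval 2.80 to 3.93) had UMIs of 3 or more of the 9 genes, against 4 of 1898 (0.211%, 0.0575 to 0.539) in WT, which is what singled this out as a signal in data left aside. In KO they held 437 UMIs of Ada (67.4 CPM) and 183 of Slc28a2 (28.2 CPM), and in WT 17 and 7 (6.22 and 2.56 CPM). Their median depth was 1427 UMIs in KO and 1348 in WT.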

How the results depend on the processing

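Other settings for the mitochondrial limit, the gene minimum, doublets and the total gave 45 values for the 9 genes over all kept barcodes, of which 31 stayed within the counting interval, 13 left it with the same sign and 1 changed sign, 2010107G12Rik at -0.072 with the most abundant genes out of the total. It also changed sign, to -0.057, without clusters 5 and 16. The median log2 ratio of the 9 over all kept barcodes, 2.49, became 2.21 at a limit of 15% mitochondrial UMIs, 2.03 with at least 500 genes per barcode, 2.15 with the most abundant genes out of the total, 1.70 without cluster 5 and 1.40 without clusters 5 and 16. In mEC-like barcodes, 3.96 became 5.17 with each matrix clustered by itself and 2.26 without cluster 16. The share of barcodes with 3 or more of the genes in WT, 0.626%, became 0.163% and 0.122% after thinning to 1000 and 500 UMIs, 4.55% and 0.206% for 2 or more and 4 or more genes, 0.176% without Ahnak and Pmp22 and 0.459% without clusters 5 and 16. In KO, 8.81% became 7.06% with no mitochondrial limit, 2.73% and 2.64% after thinning, 20.3% and 4.50% for 2 or more and 4 or more genes, 5.01% without Ahnak and Pmp22, 6.63% without cluster 5 and 4.51% without clusters 5 and 16. The log2 ratio of these shares, 3.81, became 4.44 after thinning to 500 UMIs, 2.16 and 4.45 for 2 or more and 4 or more genes, 4.83 without Ahnak and Pmp22 and 3.30 without clusters 5 and 16. The number of genes at least 2-fold higher in KO, 503, became 142 with the most abundant genes out of the total and 1806 with no filter other than 1 UMI. The settings without clusters were chosen after seeing the data, and the cause of these moves was not tested. Wide intervals for WT mEC-like barcodes come from few UMIs. No paired analysis was possible because each group was 1 matrix whose columns carry no replicate.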
